A study of Mus musculus with 13 samples.

Results

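The genes Spi1, Cebpa, Irf8, Gfi1, Csf1r, Mpo, Prtn3 and Elane, which are regulators and products of the myeloid lineage, were examined in the chromatin of 4 mouse leukaemia cell lines. They were taken by position alone, as every peak that overlapped by at least 1 bp one of 7 windows of the mm9 genome drawn around them, with Prtn3 and Elane sharing a window. Those windows held 49 of the 109165 peaks in 9 peak lists. Line 961C (C57BL/6, labelled myeloblast) came from an acute myeloid leukaemia (AML) of a NUP98-PHF23 (NP23) mouse. Lines 748T and 106A (C57BL/6, labelled lymphoblast) came from NP23 pre-T LBL of 2 other mice. The control line 7298/2, called the SCL-LMO1 line here, is a lymphoblast line from an SCL-LMO1 pre-T LBL on a C57BL/6+C3H hybrid background. All 4 lines grew without cytokines, and each NP23 line derives from a single mouse. Each line was mapped once for H3K4me3, a mark of active promoters, and once for H3K27me3, the mark of Polycomb repression. In 961C the NP23 fusion was mapped as well, with an antibody to its V5 tag.

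PU.1, the product of Spi1, is the ETS factor without which myeloid cells do not form, and C/EBPα, the product of Cebpa, drives granulocyte differentiation. IRF8 directs monocyte and dendritic cell fate, and GFI1 is a zinc-finger repressor used both in granulocyte formation and in T-cell precursors. CSF1R is the receptor for macrophage colony-stimulating factor, and myeloperoxidase (Mpo), proteinase 3 (Prtn3) and neutrophil elastase (Elane) are enzymes stored in the primary granules of myeloid precursors.

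Only the NP23 pre-T group had 2 lines, and every other group had a single line with 1 library per antibody, so no difference between groups was tested. The lists hold 16324 to 17696 peaks for H3K4me3, 4875 to 19469 for H3K27me3 and 1629 for NP23. They give the height of the read pileup over each peak without totals of reads. Sequencing depth is therefore unknown, and heights were read within a list only. Fewer cells carrying a mark and less of the mark per cell cannot be told apart in such libraries.

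Over the windows together, H3K4me3 covered far more in the AML line than in any pre-T line. Gfi1 went the other way, and Mpo had no H3K4me3 peak in any line. Peaks of 961C lay in 6 of 7 windows (exact 95% interval 42.1% to 99.6%), against 4 windows in 748T (18.4% to 90.1%), and 3 each in 106A and the SCL-LMO1 line (9.90% to 81.6%). The intervals cover counting error only, and they overlap. As background, 13.4% of all 30-kb tiles of the genome held an H3K4me3 peak of 961C, 13.1% one of 748T, 11.9% one of 106A and 13.7% one of the SCL-LMO1 line. The tiles include stretches without genes, which the windows do not.

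The length under H3K4me3 peaks separated the lines more clearly than the number of windows. It came to 22014 bp in 961C, 7067 bp in 748T, 6125 bp in 106A and 6348 bp in the SCL-LMO1 line. The whole H3K4me3 lists covered like lengths, with 21.9 Mb in 961C, 20.4 Mb in 748T, 21.3 Mb in 106A and 21.9 Mb in the SCL-LMO1 line. In the windows the AML value stood 3.34 times over the NP23 pre-T mean of 6.60 ± 0.67 kb (SD, n = 2), and the control line lay within that SD. The AML line and the pre-T lines differ in lineage and in the mouse of origin, which cannot be told apart with 1 AML line. Most of the pre-T length belonged to Gfi1. Over the 6 windows other than Gfi1, a summary chosen after the values were seen, the lengths were 19.36 kb in 961C, 2.51 kb in 748T, 1.16 kb in 106A and 1.42 kb in the SCL-LMO1 line. In 5 of the 7 windows 961C had more H3K4me3 than each of the other lines, in the Gfi1 window it had the least, and in the Mpo window no line had any. At Prtn3 and Elane that order depended on the window edges, as given below. Of 16245 tiles of 30 kb with H3K4me3 in any line, 37.1% were covered most and 18.7% least in 961C.

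**Figure D1:**
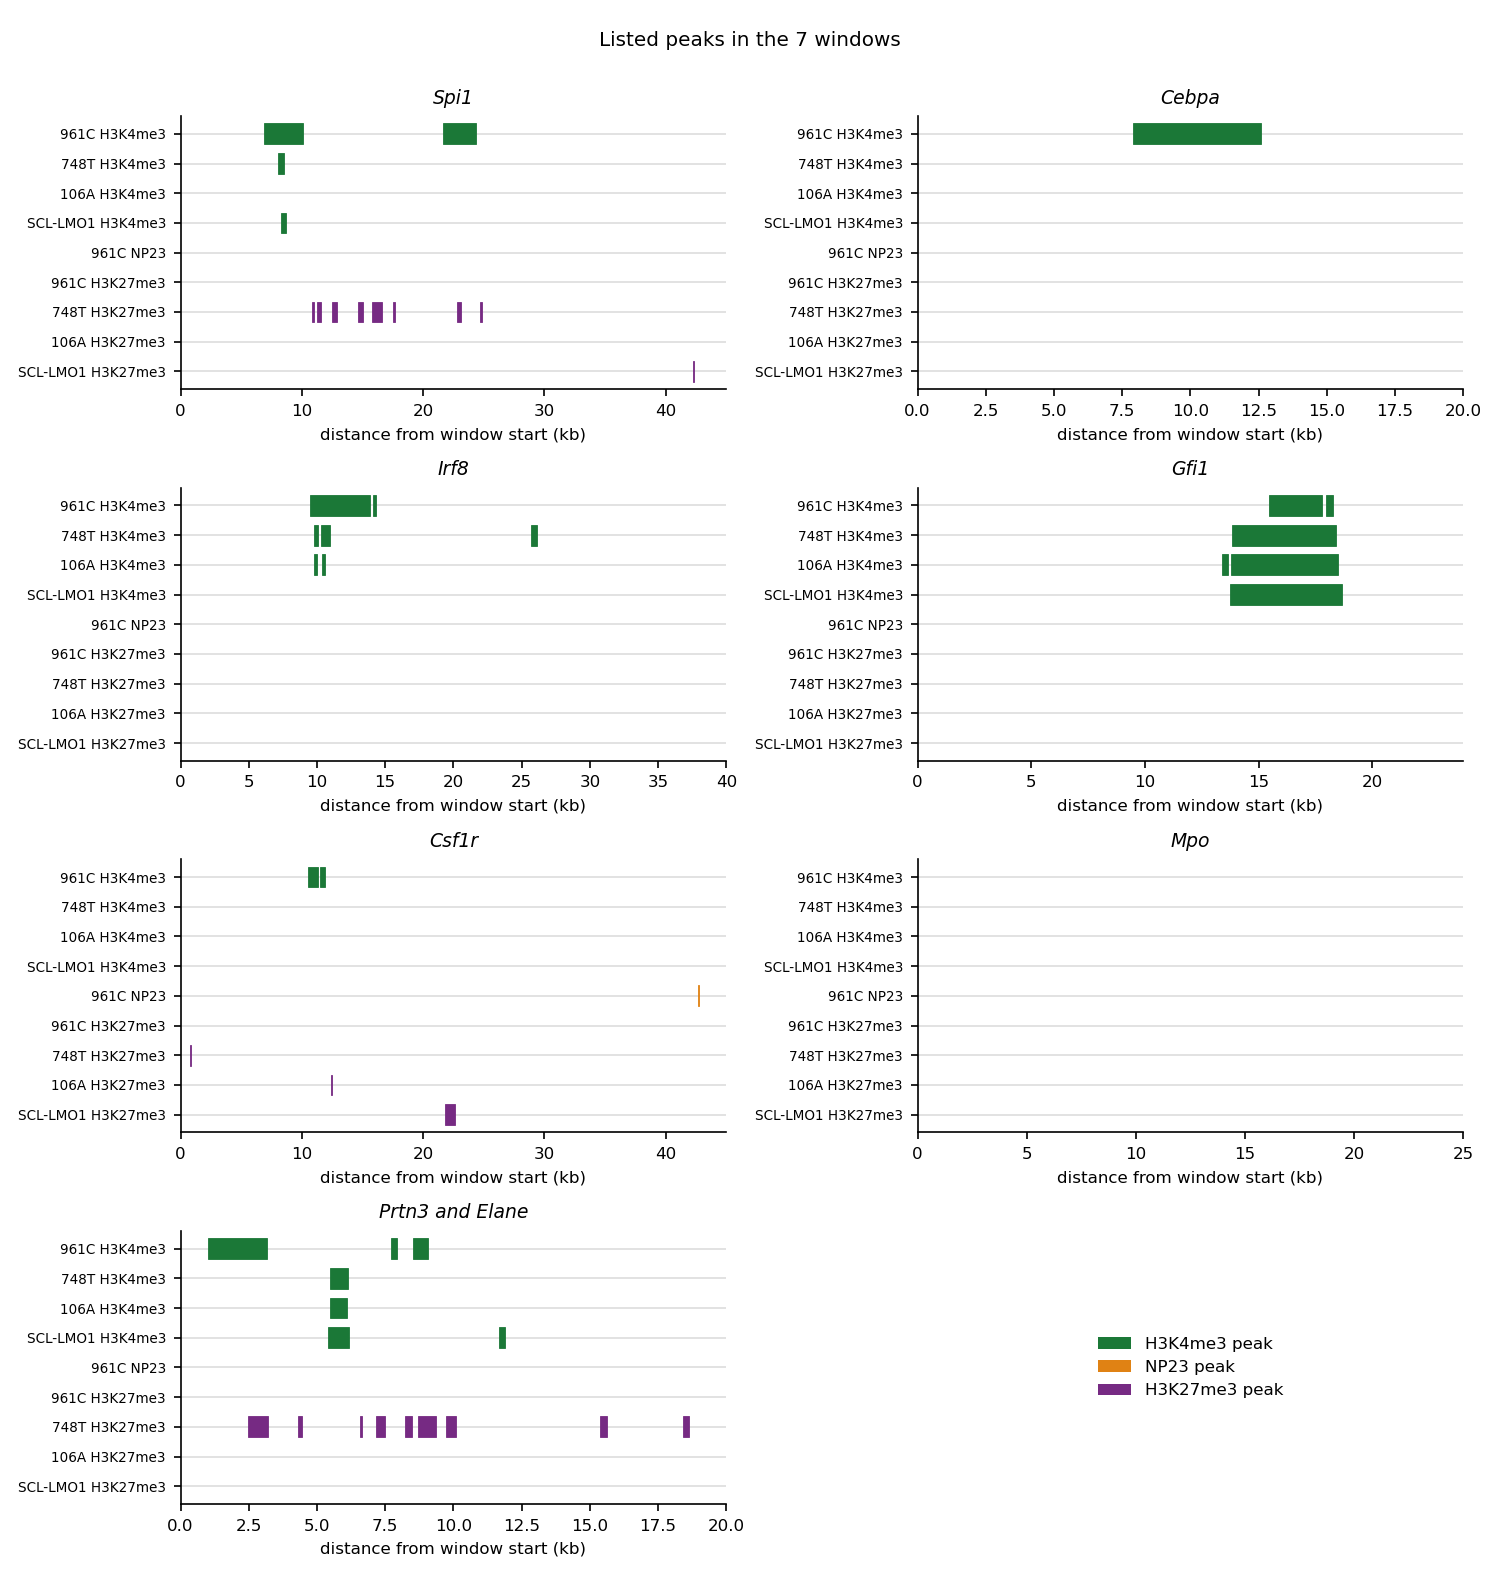
Listed peaks in the 7 windows, drawn to scale as distance from the window start in kb, with a row for each line and antibody. Wide H3K4me3 peaks of 961C stand in the Spi1, Cebpa, Irf8, Gfi1 and Prtn3 and Elane windows, H3K27me3 peaks of 748T stand in the Spi1 and the Prtn3 and Elane windows, and the Mpo window is empty.

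**Figure D2:**
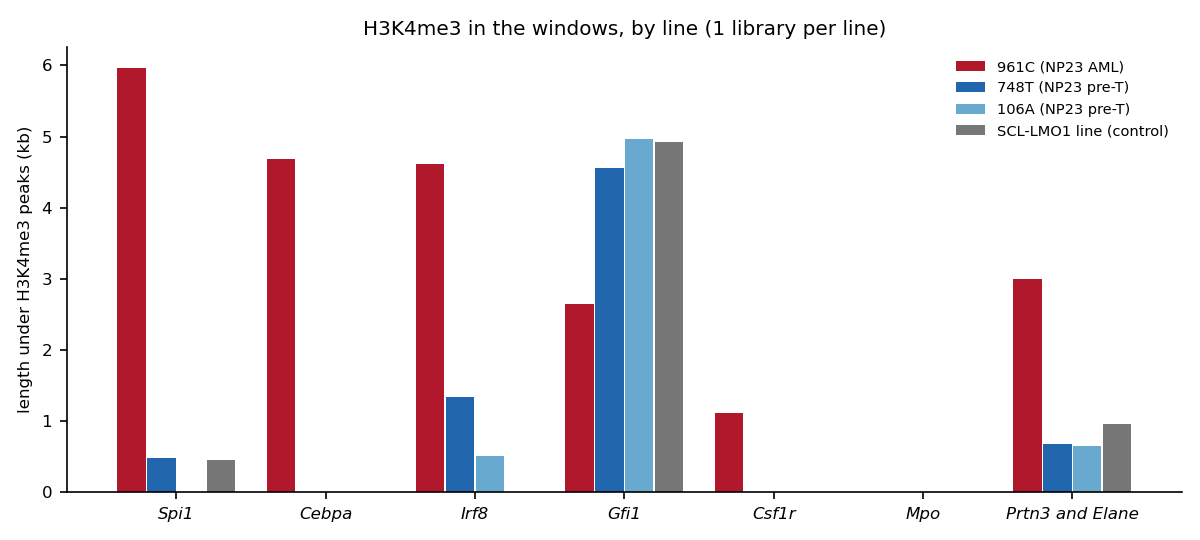
Length in kb under H3K4me3 peaks in each window, with a bar for each line and 1 library per bar. In 5 windows the 961C bar is the tallest, at Gfi1 it is the shortest at 2.65 kb against 4.56 to 4.97 kb, and at Mpo no line has a bar.

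The promoters of the members differ in their content of CG dinucleotides, at which H3K4me3 is known to concentrate. RefSeq promoters of 300 bases (250 before the start of the gene and 50 after it) were matched by symbol for 6 of the 8 genes, with no entry for Spi1 and Csf1r. They are printed 5′ to 3′ with each CG in capitals. At the starts shown, the regulators with an entry held more CG dinucleotides than the granule genes. Irf8 and Gfi1 have 2 listed starts, and the upstream one is shown. The coordinates are those of GRCm38.p6 and were not carried over to mm9, so the peaks below were not placed on these starts. The promoter of Mpo was added after its empty window was seen.
Cebpa, GRCm38.p6 chr7:35119043-35119342, plus strand: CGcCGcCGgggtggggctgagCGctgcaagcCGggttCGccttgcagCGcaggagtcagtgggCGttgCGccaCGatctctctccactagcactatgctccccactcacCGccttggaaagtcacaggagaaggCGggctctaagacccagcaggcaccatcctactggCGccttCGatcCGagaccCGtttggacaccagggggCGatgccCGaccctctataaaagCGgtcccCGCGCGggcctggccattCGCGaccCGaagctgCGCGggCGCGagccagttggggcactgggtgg
Irf8, GRCm38.p6 chr8:120736108-120736407, plus strand: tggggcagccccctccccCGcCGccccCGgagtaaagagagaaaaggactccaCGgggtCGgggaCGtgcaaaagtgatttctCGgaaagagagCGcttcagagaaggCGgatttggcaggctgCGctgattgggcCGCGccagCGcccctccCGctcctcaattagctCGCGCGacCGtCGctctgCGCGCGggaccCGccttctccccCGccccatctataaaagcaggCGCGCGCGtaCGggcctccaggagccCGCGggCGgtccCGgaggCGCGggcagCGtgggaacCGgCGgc
Gfi1, GRCm38.p6 chr5:107725756-107726055, minus strand: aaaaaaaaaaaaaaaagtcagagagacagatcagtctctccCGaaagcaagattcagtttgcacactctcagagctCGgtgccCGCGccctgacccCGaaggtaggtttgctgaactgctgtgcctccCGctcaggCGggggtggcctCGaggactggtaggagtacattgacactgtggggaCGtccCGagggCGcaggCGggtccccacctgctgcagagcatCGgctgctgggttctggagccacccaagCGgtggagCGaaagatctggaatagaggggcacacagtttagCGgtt
Prtn3, GRCm38.p6 chr10:79879417-79879716, plus strand: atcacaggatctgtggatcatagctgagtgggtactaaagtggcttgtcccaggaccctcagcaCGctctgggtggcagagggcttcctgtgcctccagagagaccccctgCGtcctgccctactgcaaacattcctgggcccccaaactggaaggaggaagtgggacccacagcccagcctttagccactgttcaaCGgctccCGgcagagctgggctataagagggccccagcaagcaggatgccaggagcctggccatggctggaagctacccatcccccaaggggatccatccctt
Elane, GRCm38.p6 chr10:79886062-79886361, plus strand: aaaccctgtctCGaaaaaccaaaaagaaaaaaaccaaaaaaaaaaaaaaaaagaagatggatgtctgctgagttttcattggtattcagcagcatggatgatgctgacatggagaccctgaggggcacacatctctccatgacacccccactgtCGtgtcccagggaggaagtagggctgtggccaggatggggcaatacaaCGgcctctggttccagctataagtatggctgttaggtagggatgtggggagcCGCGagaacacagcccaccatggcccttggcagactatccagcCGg
Mpo, GRCm38.p6 chr11:87793534-87793833, plus strand: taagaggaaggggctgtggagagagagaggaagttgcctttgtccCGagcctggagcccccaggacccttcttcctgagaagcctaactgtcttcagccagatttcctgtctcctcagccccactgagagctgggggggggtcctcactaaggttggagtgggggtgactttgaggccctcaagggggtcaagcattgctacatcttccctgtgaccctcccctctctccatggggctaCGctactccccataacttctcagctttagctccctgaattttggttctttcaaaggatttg

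The regulators' promoters held 38 (Irf8), 29 (Cebpa) and 16 (Gfi1) CG dinucleotides, and those of the granule genes held 6 (Elane), 4 (Prtn3) and 2 (Mpo). Over 32851 promoters in the table the median was 7, with quartiles of 3 and 20. The 3 regulators thus lay above the median and the 3 granule genes below it. The second starts of Irf8 and Gfi1 held 8 and 10. The letters GAGGAA, a core bound by PU.1 and other ETS factors, were searched on both strands and occurred 2 times in the Mpo promoter and once each in those of Prtn3 and Elane, with no match in the other 3. The motif occurred in 28.3% of all these promoters. TTGCNNAA, a C/EBP type motif, had a match in the Gfi1 promoter alone among the 6, against 10.8% of all promoters, and no member held both motifs. Such matches describe the letters and are not binding sites.

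**Figure D3:**
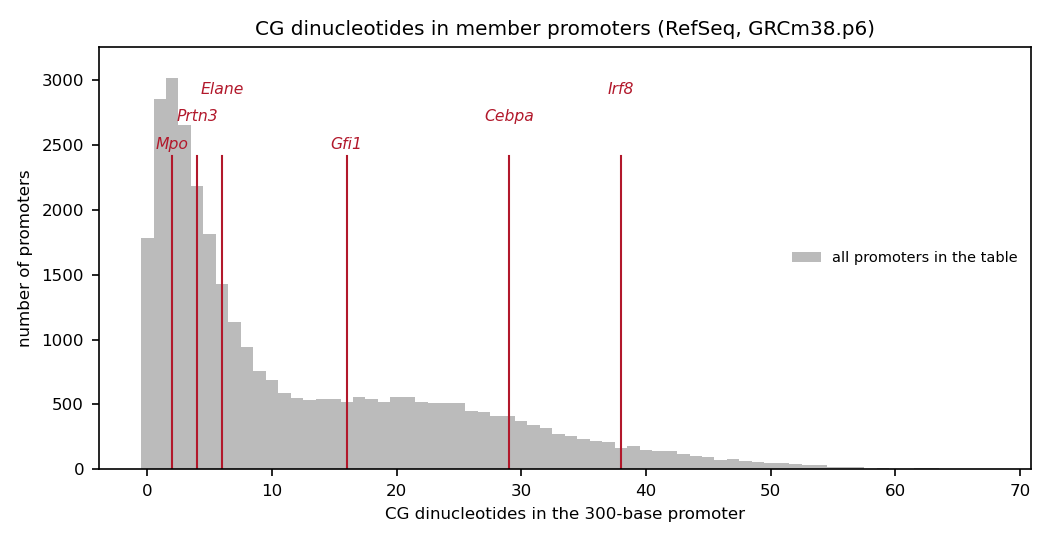
Number of RefSeq promoters (grey bars) by their count of CG dinucleotides in 300 bases, with the 6 members at their upstream start as red lines. Mpo, Prtn3 and Elane lie at 2, 4 and 6, below the median of 7, and Gfi1, Cebpa and Irf8 lie at 16, 29 and 38.

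Of the 7 windows, that of Spi1 had the largest H3K4me3 length in 961C, but the windows differ in size. As a share of the window, 961C covered 13.2% at Spi1, against 23.4% at Cebpa and 15.0% at Prtn3 and Elane. In the Spi1 window, chr2:90915000-90960000, H3K4me3 covered 5962 bp in 961C, 492 bp in 748T, 0 bp in 106A and 456 bp in the SCL-LMO1 line. The 961C signal consisted of a 3213-bp peak at chr2:90921888-90925100 and a 2749-bp peak at chr2:90936642-90939390. The first was wider than 96.0% of the 961C list but low, with a maximum of 26 reads, above 39.2% of the list. The second reached 74 reads, above 83.9% of the list. The peaks of 748T (chr2:90923006-90923497, maximum 16 reads) and of the SCL-LMO1 line (chr2:90923271-90923726, maximum 18 reads) both fell inside the first 961C peak, covering 15.3% of it in 748T and 14.2% in the SCL-LMO1 line. No pre-T line had H3K4me3 at the second 961C peak. Slc39a13 and Mybpc3 are the neighbours of Spi1 in the RefSeq gene order of GRCm38.p6, and the peaks were not assigned to a gene within the window.

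At Cebpa the AML line alone carried H3K4me3. A single peak of 4686 bp, chr7:35902906-35907591, filled 23.4% of the window chr7:35895000-35915000. It was wider than 99.0% of the 961C list, and its maximum of 102 reads was above 98.8% of it, the highest rank of any H3K4me3 peak in these windows. The window held no peak of either mark in the 3 pre-T lines. The nearest H3K4me3 peak outside it was 28.7 kb away in 748T, 52.9 kb in 106A and 52.8 kb in the SCL-LMO1 line. The neighbours of Cebpa are the predicted gene Gm45095 and Slc7a10.

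The Irf8 window held listed H3K4me3 in all 3 NP23 lines and not in the control, but the peaks of the 2 NP23 pre-T lines were short and low. Within chr8:123250000-123290000, H3K4me3 covered 4605 bp in 961C, 1336 bp in 748T, 509 bp in 106A and 0 bp in the SCL-LMO1 line. The widest peaks were 4357 bp in 961C (chr8:123259522-123263878, maximum 73 reads), 654 bp in 748T (chr8:123260295-123260948, maximum 57 reads) and 258 bp in 106A (chr8:123259764-123260021, maximum 17 reads). The 2 NP23 pre-T lines thus carried short peaks at the left end of the wide AML peak, covering 21.5% of it in 748T and 11.7% in 106A. Their maxima were above 25.1% and 42.4% of the list in 748T, and above 9.22% and 2.66% in 106A. With the taller 50% of peaks, neither line kept H3K4me3 in this window, so the split from the control was lost. The share of all regions with this distribution over the lines was not computed. A further 748T peak of 399 bp, chr8:123275691-123276089, lay where no other line was marked. The SCL-LMO1 line differs from the NP23 lines in oncogene and in strain, which cannot be told apart, and its nearest H3K4me3 peak was 56.8 kb outside the window. Cox4i1 and Foxf1 flank Irf8.

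Gfi1 was the reverse case, with wide H3K4me3 in every pre-T line and less in the AML line. H3K4me3 covered 2650 bp of chr5:108138000-108162000 in 961C, 4561 bp in 748T, 4969 bp in 106A and 4928 bp in the SCL-LMO1 line. The widest peak was 2328 bp in 961C (chr5:108153440-108155767, maximum 48 reads), 4561 bp in 748T (chr5:108151827-108156387, 120 reads), 4712 bp in 106A (chr5:108151801-108156512, 149 reads) and 4928 bp in the SCL-LMO1 line (chr5:108151755-108156682, 114 reads). Both 961C peaks lay wholly inside the peak of each pre-T line. Each pre-T peak was wider than 98.9% to 99.4% of its list, and the 961C peak was wider than 88.2%. The pre-T mean over the window was 4.77 ± 0.29 kb (SD, n = 2), so the AML value was lower by more than the spread between the NP23 pre-T lines, and the control value lay within it. Merged over the lines, this was the only region of the windows found in all 4, and its length in 961C was 0.572 times the NP23 pre-T mean. Of 9449 H3K4me3 regions found in all 4 lines, 24.6% were covered least in 961C, and 6.72% had a smaller ratio than Gfi1, with a median ratio of 1.04 (quartiles 0.877 and 1.20). A second track, read as background, was set over the widest peak against the median of the same list. It averaged 0.101 reads in 961C (list median 0.264), 0.263 reads in 748T (0.197), 1.75 reads in 106A (1.46) and 1.26 reads in the SCL-LMO1 line (1.07). It thus lay below its list median in 961C and above it in each pre-T line, and its part in the result was not tested. Rpap2 and Evi5 are the neighbours of Gfi1.

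**Figure D4:**
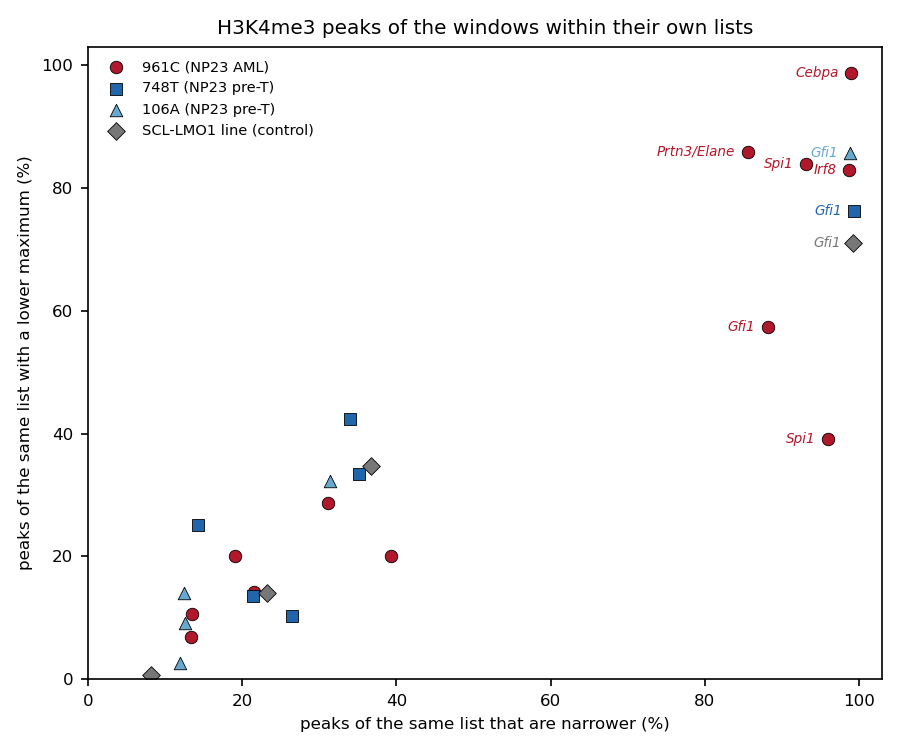
H3K4me3 peaks of the windows by the percentage of their own list that is narrower (horizontal) and has a lower maximum (vertical), with a symbol for each line and gene names on peaks of 2 kb or more. Of the 9 named peaks, 6 belong to 961C and 3 are the Gfi1 peaks of the pre-T lines, while every other pre-T peak lies below 50% on both axes.

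Csf1r, the receptor gene, carried weak H3K4me3 in the AML line alone. In chr18:61255000-61300000, 961C had peaks of 749 bp (chr18:61265549-61266297) and 366 bp (chr18:61266537-61266902) with maxima of 14 and 12 reads, above 20.1% and 14.2% of the list. They covered 1115 bp, and none of the pre-T lines had an H3K4me3 peak in the window. H3K27me3 had 1 peak in each pre-T line and 0 in 961C, and 0 is common in that list, as 8.11% of 30-kb tiles held a peak of it. The shares of tiles were 5.02% for 748T, 4.02% for 106A and 4.07% for the SCL-LMO1 line. The H3K27me3 peaks lay at chr18:61255783-61255883 in 748T, chr18:61267375-61267475 in 106A and chr18:61276766-61277610 in the SCL-LMO1 line, at separate places, and 2 of the 3 were only 101 bp wide. That of 748T lay 0.78 kb from the window start. Pdgfrb and Hmgxb3 flank Csf1r.

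Of the granule genes, Mpo carried no listed mark. Its window, chr11:87600000-87625000, held no peak of H3K4me3, H3K27me3 or NP23 in any line. That included 961C, which is labelled myeloblast, a cell type for which Mpo is a textbook marker. The nearest H3K4me3 peak was 28.1 kb outside the window in 961C, 27.9 kb in 748T, 27.8 kb in 106A and 27.7 kb in the SCL-LMO1 line, so the 4 lines were alike here. A gene can be transcribed with a mark too low to be listed, and expression was not measured in these files. Tspoap1 and Lpo are the neighbours of Mpo.

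In the shared window of Prtn3 and Elane, chr10:79335000-79355000, the AML line and the pre-T lines had H3K4me3 at different places. It covered 2996 bp in 961C, 678 bp in 748T, 647 bp in 106A and 964 bp in the SCL-LMO1 line. The widest 961C peak was 2192 bp (chr10:79335990-79338181, maximum 76 reads, above 85.9% of the list), and 2 low ones of 246 and 558 bp followed further along, at chr10:79342701-79342946 and chr10:79343523-79344080. None of the 3 met H3K4me3 of another line. The pre-T lines shared a different peak, at chr10:79340456-79341133 in 748T, chr10:79340463-79341109 in 106A and chr10:79340417-79341169 in the SCL-LMO1 line, where 961C had none. Of 25010 merged H3K4me3 regions, 5.73% were likewise found in the 3 pre-T lines and not in 961C. Plppr3 lies before Prtn3 and Cfd, another serine protease gene, lies after Elane, so a peak near a window edge may belong to either. The 2192-bp peak of 961C began 0.99 kb into the window and was lost with windows narrowed by 5 kb. The 961C peaks left, of 246 and 558 bp, then covered less than those of the SCL-LMO1 line, of 753 and 211 bp. The AML line thus no longer had the most H3K4me3 there.

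Merged over the 4 lines, the H3K4me3 peaks of the windows formed 15 regions, of which 8 were found in 961C alone. A further 3 were found in a single pre-T line, 3 in 3 lines and 1 in all 4. Counted as peaks, 8 of the 12 H3K4me3 peaks of 961C (66.7%, exact interval 34.9% to 90.1%) met no H3K4me3 of another line, against 25.1% of all 961C H3K4me3 peaks. They came from 5 windows, with 3 at Prtn3 and Elane, 2 at Csf1r and 1 each at Spi1, Cebpa and Irf8. Peaks of a window share their locus and are not independent, which the interval does not cover.

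H3K27me3 in these windows was mostly that of 748T. The list of 961C, although the longest with 19469 peaks, had 0 peaks in the 7 windows (upper bound of the exact interval 41.0%), against 18 peaks in 3 windows for 748T, 1 peak in 1 window for 106A and 2 peaks in 2 windows for the SCL-LMO1 line. The shares of 30-kb tiles with an H3K27me3 peak were 8.11% for 961C, 5.02% for 748T, 4.02% for 106A and 4.07% for the SCL-LMO1 line, so 0 of 7 in 961C is near its background. With the windows widened by 10 kb, an absence in 961C no longer held, as it had 3 peaks in 2 windows. The length under H3K27me3 was 0 bp in 961C, 6020 bp in 748T, 101 bp in 106A and 964 bp in the SCL-LMO1 line. The NP23 pre-T mean of 3.06 ± 4.19 kb (SD, n = 2) therefore rested on 748T, and without that line it was 101 bp.

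The 748T peaks formed rows at Spi1 and at Prtn3 and Elane. At Spi1, 8 peaks stretched over 14.1 kb and covered 2937 bp, the widest being 845 bp at chr2:90930801-90931645 with a maximum of 13 reads. At Prtn3 and Elane, 9 peaks stretched over 16.1 kb and covered 2982 bp, the widest being 696 bp at chr10:79337492-79338187 with a maximum of 14 reads. Rows this dense were rare in that library: 0.247% of 45-kb tiles held at least 8 H3K27me3 peaks of 748T, and 0.0538% of 20-kb tiles held at least 9. The number of peaks was seen before these shares were computed. The second track of 748T averaged at most 0.0170 reads over the Spi1 peaks and 0.235 reads over those at Prtn3 and Elane. The median over all H3K27me3 peaks of 748T was 0.0 reads, so low values are usual in that list. Over the H3K4me3 peaks of 748T, the second track on chromosome 2 averaged 0.947 times its autosomal mean, and on chromosome 10 it averaged 0.940 times that mean. The single peak of the SCL-LMO1 line at Spi1 lay apart from the row, at chr2:90957215-90957333, and 106A had none in either window.

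**Figure D5:**
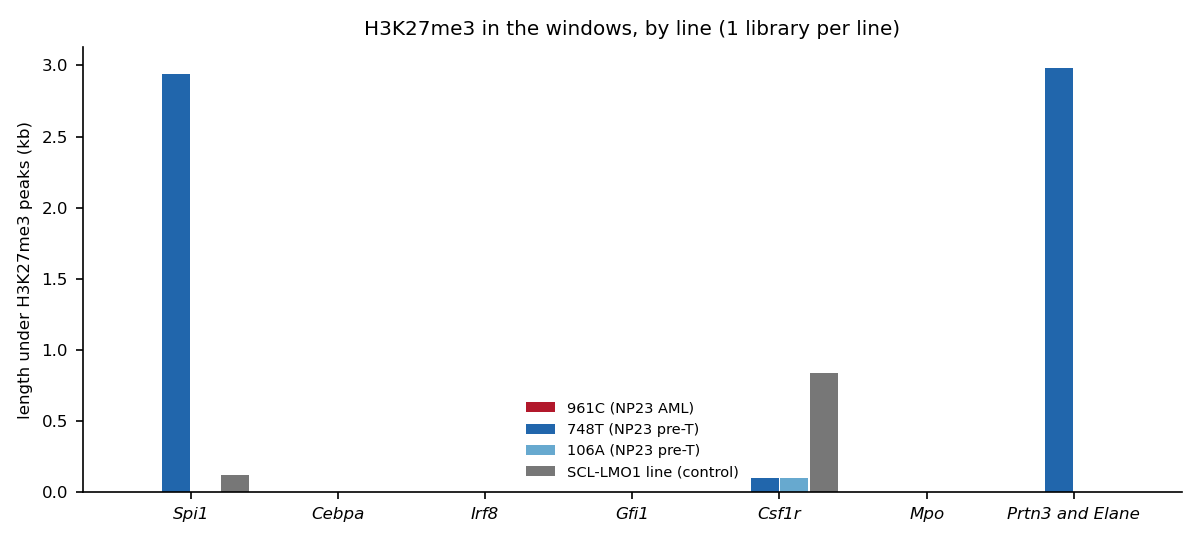
Length in kb under H3K27me3 peaks in each window, with a bar for each line and 1 library per bar. The tall bars are those of 748T at Spi1 (2.94 kb) and at Prtn3 and Elane (2.98 kb), and no bar of 961C is above 0.

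In 748T the repressive mark lay partly where the AML line had H3K4me3. At Spi1, the peak chr2:90937801-90938110 fell entirely within the second H3K4me3 peak of 961C, and at Prtn3 and Elane 2 peaks overlapped H3K4me3 of 961C by 1068 bp in all. Together 3 of the 18 peaks (16.7%, exact interval 3.58% to 41.4%) overlapped H3K4me3 of 961C, against 1.33% of all 748T H3K27me3 peaks. Nearly all of the 18 belong to the rows at Spi1 (8) and at Prtn3 and Elane (9) and are not independent, which the interval does not cover. The shares are also not alike in setting, as 6 of the 7 windows held H3K4me3 of 961C, against 13.4% of 30-kb tiles. Within 748T itself the shortest gap between peaks of the marks was 2310 bp at Spi1 and 422 bp at Prtn3 and Elane. Each of these windows held only 1 short H3K4me3 peak of 748T, of 492 bp and 678 bp. The share of all 748T H3K27me3 peaks clear of its own H3K4me3 was not computed. Windows with both marks in the same line numbered 0 for 961C, 2 for 748T, 0 for 106A and 1 (Spi1) for the SCL-LMO1 line. Among 30-kb tiles, both marks were present in 2.10% for 961C, 1.75% for 748T, 0.602% for 106A and 0.368% for the SCL-LMO1 line. No H3K27me3 peak fell in the Cebpa, Irf8, Gfi1 or Mpo windows in any line.

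NP23 was listed in 1 of these windows in 961C, by a peak that was narrow and near the window edge. The only NP23 peak in the 7 windows was 99 bp wide in the Csf1r window, chr18:61297684-61297782, with a maximum of 14 reads. It lay over 30 kb from the H3K4me3 peaks of that window and was wider than 6.20% of the NP23 list. Its second track averaged 0.808 reads, against a list median of 0.134. It began 42.68 kb into the window, was lost with windows narrowed by 5 kb, and was not assigned to a gene. With 1 of 7 windows (exact interval 0.361% to 57.9%), the count stood against 1.41% of 30-kb tiles. None of the 12 H3K4me3 peaks of 961C in the windows held NP23 (upper bound 26.5%), against 4.96% of all 961C H3K4me3 peaks, so with 12 peaks a share at the level of the whole list cannot be told from 0. The wide peaks at Cebpa and Irf8 were among those without it. The nearest NP23 peak lay 597 kb from the Irf8 window, 658 kb from Mpo, 1760 kb from Spi1, 1790 kb from Prtn3 and Elane, 2250 kb from Cebpa and 2830 kb from Gfi1.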

How the data were processed

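Of 13 samples, 9 had a peak list deposited by the authors, and the 4 input samples were not used here. Chromatin was fixed with formaldehyde, sonicated and immunoprecipitated, per the labels' protocols. The submitters' processing notes name CASAVA 1.9, BWA 0.5.9-r26 and mm9, and the peak caller was not stated in the sources used here. Each deposited list gives, per peak of 1 library, its start, end and the mean and maximum pileup height in reads of the sample and of a second track. The letter of the second track is not explained, and its reading as background rests on its low values. Positions are printed from 1.

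Peaks were put in a window by an overlap of 1 bp, and covered length was cut at the window edges. Shares carry exact Clopper-Pearson 95% intervals for counting error. Backgrounds are all whole 30-kb tiles of chromosomes 1 to 19, X and Y up to the furthest listed peak, tiles of the window's own length, or all peaks of a list. Merged regions join touching peaks of the 4 H3K4me3 lists. Promoters and gene order are from RefSeq tables of GRCm38.p6, and 6 of 8 genes had a promoter. No gene positions on mm9 other than the windows were used, so further myeloid or T-cell marker genes were not analysed here. Python 3.11.15, numpy 2.4.6, pandas 2.3.3 and scipy 1.17.1 were used, and the overlap functions were tested on simulated data against base-by-base counting. Named were all 8 genes, the widest H3K4me3 peak per window and list, H3K27me3 peaks (the widest where over 5) and every NP23 peak. The genes and windows were chosen with earlier results of these data known. Alternatives were other window edges, overlap rules, list lengths, width, height and second-track limits, joining of peaks, and dropping 748T or 106A.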

Additional observations from a re-analysis of the deposited data

How the results depend on the processing

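Of 228 values recomputed under alternatives, 174 kept within the spread of the NP23 pre-T lines (lengths) or within 1.5 times (counts), and the other 54 follow. For H3K27me3 that spread was 4.19 kb, so wide that its lengths could hardly leave it, and keeping within it says little. With windows widened by 10 kb, H3K27me3 length went from 101 to 1194 bp in 106A and from 0 to 301 bp in 961C. With peaks of 500 bp or more it fell from 6020 to 2208 bp in 748T. Over all windows together, H3K4me3 stayed longest in 961C in every setting, and equal list lengths and the rule of 50% of the peak inside the window moved none of the values beyond that. With windows widened by 10 kb, H3K4me3 length was 24736 bp in 961C, 8663 bp in 748T, 7630 bp in 106A and 8746 bp in the SCL-LMO1 line, whose peaks numbered 7. H3K27me3 then had 3 peaks in 2 windows in 961C and 4 peaks in 3 windows in 106A, and windows with both marks were 1 in 961C and 2 in 106A. With windows narrowed by 5 kb, 961C had 19822 bp of H3K4me3, as its widest peak at Prtn3 and Elane was lost, and it no longer had the most there. The SCL-LMO1 line then had 1 H3K27me3 peak in 1 window and 0 windows with both marks, and NP23 had 0 peaks, 0 windows and 0 bp. With the taller 50% of peaks, H3K4me3 had 5 peaks and 16312 bp in 961C, and 1 peak in 1 window, at Gfi1, in each pre-T line (4561 bp in 748T, 4712 bp in 106A, 4928 bp in the SCL-LMO1 line). Then 4 peaks of 961C met no other line, and windows with both marks were 0 in 748T and 0 in the SCL-LMO1 line. With peaks of 500 bp or more, H3K4me3 length was 20832 bp in 961C, 5893 bp (3 peaks) in 748T, 5359 bp (2 peaks) in 106A and 5681 bp (2 peaks) in the SCL-LMO1 line. H3K27me3 then had 3 peaks in 748T, 0 peaks in 0 windows in 106A and 1 peak in 1 window in the SCL-LMO1 line, and NP23 had 0 peaks, 0 windows and 0 bp. With a second-track mean of at most 1 read, 106A kept 2 H3K4me3 peaks, 1 window and 509 bp and the SCL-LMO1 line 2 peaks and 667 bp, since the Gfi1 peaks and the shared peak at Prtn3 and Elane exceed that limit in both. The limit lies below the H3K4me3 list medians of 106A (1.46) and the SCL-LMO1 line (1.07), but above those of 961C (0.264) and 748T (0.197). It removed no 961C peak in the windows, so it could not change which line was longest. Joining peaks within 1 kb gave 3 H3K4me3 peaks in 106A and 10 H3K27me3 peaks in 748T. Leaving out each NP23 pre-T line put the group's H3K4me3 length at 6125 to 7067 bp and its H3K27me3 length at 101 to 6020 bp. With n = 2 such a change is always smaller than the SD, so these lengths could not count as moved. Fewer peaks or a different span enter by construction in each setting, and other causes were not tested. Without read totals, a peak missing from a list may be a peak below its unknown threshold.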

Other observations

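Just outside the windows of Irf8 and Spi1, the nearest H3K27me3 peaks differed between lines. No background was computed for such distances, here or below. At Irf8, H3K27me3 peaks of 748T (299 bp) and 106A (408 bp) lay beyond the window by 4.07 kb (chr8:123294069-123294367) and 3.14 kb (chr8:123293140-123293547), while the nearest of 961C was 89.2 kb away and that of the SCL-LMO1 line 310.0 kb. At Spi1, 106A had its nearest H3K27me3 peak 0.436 kb beyond the window, at chr2:90960437-90960693, against 133 kb for 961C.

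At Cebpa, Mpo and Gfi1 it was the AML line that had H3K27me3 nearest. For Cebpa the distance was 5.23 kb in 961C (a 101-bp peak at chr7:35889668-35889768), 202 kb in 748T, 434 kb in 106A and 4260 kb in the SCL-LMO1 line. For Mpo it was 9.02 kb in 961C (chr11:87634019-87634197), 70.7 kb in 748T, 24.6 kb in 106A and 65.1 kb in the SCL-LMO1 line. For Gfi1 it was 112 kb in 961C, 443 kb in 748T, 617 kb in 106A and 1540 kb in the SCL-LMO1 line. The 961C list is the longest, so shorter distances in it were not compared with the other lines by a test.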
